A study of Mus musculus with 32 samples.

Results

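Macrophages that received no lipoprotein were compared between the DBA/2 and AKR strains in the first of the study's experiments. The arrays were those that the labels give as female and without AcLDL, 4 of unloaded DBA/2 macrophages and 4 of unloaded AKR macrophages, which is 8 of the 32 arrays in the series. The study cultured bone marrow macrophages of both strains for 24 hours with or without acetylated low density lipoprotein (AcLDL), a modified lipoprotein that macrophages take up until they fill with cholesterol, and measured transcripts on Illumina bead arrays. The first experiment used cells of female mice with 100 µg/ml AcLDL in its 8 loaded arrays, and the second used mice labelled male, 50 µg/ml and a later version of the array. Both strains lacked ApoE in every group used here, DBA/2 ApoE-/- and AKR ApoE-/-, and the mice were 16 weeks old on a chow diet. For its cholesterol assay the paper grew such cells for 13 days in medium with L-cell conditioned medium as the source of M-CSF. For the array dishes it states only that the macrophages were differentiated. If grown in the same way, they model resting, M-CSF-grown macrophages and not tissue or lesion macrophages. The 4 arrays of a group came from quadruplicate dishes that are not stated to be of separate mice, so the p-values measure only the spread between these arrays, which may be technical.

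Macrophages grown from bone marrow with M-CSF are a standard model of the cells that become foam cells in arteries. Inbred strains differ at many sites in the genome, both in genes and in the sequences that control them, and the macrophages of each strain therefore start from a baseline of their own. The major histocompatibility complex is the best known such region: AKR carries the k haplotype of its genes and DBA/2 the d haplotype. A hybridization probe of fixed sequence binds less well where a strain carries a variant under it, and a strain difference on an array can then come from the probe instead of the amount of RNA. Genes read by several probes were for that reason described first.

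The values were log2 signals, quantile normalized by the authors, so that every array of the first experiment held the same set of values, with a lowest value of 4.876, a median of 5.978 and a highest of 14.41. Each unloaded array correlated best with its own group (mean Pearson r across probes of 0.994 to 0.996, against at most 0.988 with another group), and the median SD of a probe was 0.0963 among the DBA/2 arrays and 0.101 among the AKR arrays. Of 15 macrophage genes on the array, 13 had a group mean above 8, among them Adgre1 (F4/80), Itgam, Cd14, Lyz2 and Spi1, and none of the 14 T and NK cell, 8 B cell, 9 dendritic cell, 14 stromal or 10 mast and erythroid markers did. Of 11 neutrophil and granule precursor markers 2 did (Lcn2 and S100a8), as did 3 of 10 osteoclast markers (Ctsk, Mmp9 and Nfatc1). Apoe read 8.39, 8.25, 8.15 and 8.15 in DBA/2 arrays, against 7.99, 8.17, 8.05 and 8.20 in AKR arrays, and its strain difference was 0.13 ± 0.079 (adjusted p = 0.199). The place of its probe relative to the disrupted part of the gene is not given in the sources used here, so that this value checks no genotype. The Y-linked genes Eif2s3y, Kdm5d and Uty lay below the median of all values in all 8 arrays.

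The strains differed widely before any loading. Of 13339 probes kept for a level above the median of all values, 3755 (28.2%) passed an adjusted p of 0.01 in limma, 1784 higher and 1971 lower in DBA/2 macrophages, and the median size of a called difference was 0.396 on the log2 scale. A difference of 2-fold or more, which is 1 on the log2 scale, was seen with 300 probes (2.25%), 176 higher and 124 lower, of which 49 had no gene name in the annotation. With an offset of 50 on the linear scale, which shrinks the differences of dim probes, 191 probes were called at this size, 114 higher and 77 lower. Read from the brightest kept probe of each gene, 1333 of 9312 genes (14.3%) were higher and 1293 (13.9%) were lower in DBA/2 cells. Every count of a gene list below is to be read against these shares. All fold changes and differences are on the log2 scale as DBA/2 minus AKR, with the standard error of the fit, unless a fold is named. In 34 of the 210 genes called at 2-fold or more, one strain's mean lay below the median of all values. The table holds no detection values, so whether such a signal is above background is unknown. With whole cultures, fewer cells that make a transcript and less of it in each cell cannot be told apart.

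Several probes were available for 1867 genes. All kept probes of a gene were called higher in DBA/2 cells for 94 genes and all lower for 161 genes. In 640 genes only some of the probes were called, in 946 none was, and in 26 genes probes were called in both directions (13 under a stricter filter and 17 with none). Across these genes the difference of the brightest probe correlated with that of the next brightest with a Pearson r of 0.604, a value that describes genes of the same arrays and not independent replicates. The probes of a gene typically lay close, with a median gap of 0.157, but in 36 genes they lay 1 or more apart. Among the 54 genes with several probes whose brightest was called at 2-fold or more, 21 had another probe called at 2-fold or more in the same direction, 17 had one called in the same direction by less, 15 had no other probe called, and in 1, H2-Ab1, another probe was called in the opposite direction. The remaining 156 genes called at this size rested on 1 probe each, where no such check can be made.

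**Figure D1:**
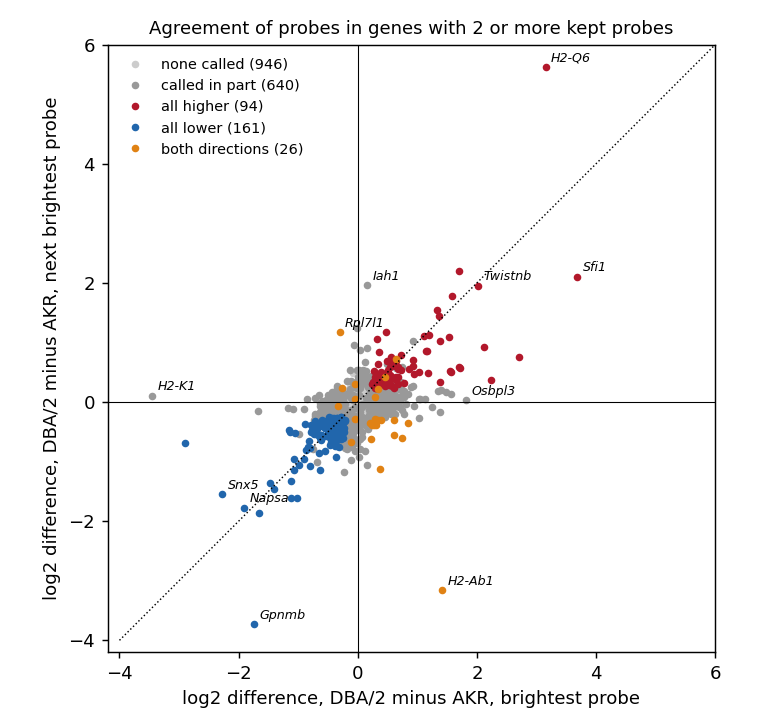
Log2 difference, unloaded DBA/2 minus unloaded AKR, of the brightest probe (x axis) against the next brightest probe (y axis), 1 point for each of 1867 genes with 2 or more kept probes, coloured by how many of a gene's probes passed the test. Sfi1, H2-Q6, Gpnmb and Napsa lie far out with both probes on the same side of 0, H2-Ab1 has its probes on opposite sides, and H2-K1, Osbpl3 and Iah1 lie near an axis.

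The genes whose probes agreed best were led upward by H2-Q6, a class I gene of the major histocompatibility complex, and Sfi1, a centrosome protein. The brighter probe of Sfi1 read 11.03, 11.04, 11.10 and 11.19 in DBA/2 arrays, against 7.38, 7.41, 7.34 and 7.49 in AKR arrays, and its second probe 8.11, 7.78, 7.77 and 8.04 in DBA/2 arrays, against 5.94, 5.83, 5.83 and 5.68 in AKR arrays. The groups were far apart with both, and the differences were 3.69 ± 0.083 and 2.11 ± 0.084, the second against an AKR mean below the median of all values. H2-Q6 differed by 3.16 ± 0.093 and 5.62 ± 0.087 with its 2 probes, but class I genes are near copies of each other and a probe named for one can bind transcripts of another. Adam8, a membrane protease of leukocytes that cuts adhesion molecules, read 9.51, 9.95, 9.68 and 9.67 in DBA/2 arrays, against 8.03, 8.06, 8.06 and 8.31 in AKR arrays. That is 3.0-fold higher in DBA/2 cells (adjusted p = 1.09e-13), and its second probe differed by 1.78 ± 0.077.

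Rapgef5, an exchange factor for Ras-family GTPases, had 3 probes that agreed, at 1.36 ± 0.071, 1.44 ± 0.071 and 1.29 ± 0.066. Its brightest probe read 8.68, 8.83, 8.83 and 8.92 in DBA/2 arrays, against 7.47, 7.43, 7.42 and 7.50 in AKR arrays, without overlap. Cdkn1a encodes p21, an inhibitor of the cyclin-dependent kinases that drive the cell cycle, and it read 11.69, 11.72, 11.82 and 11.91 in DBA/2 arrays, against 10.54, 10.68, 10.73 and 10.75 in AKR arrays. Its 2 probes gave the same difference, 1.11 ± 0.079 and 1.11 ± 0.071, without overlap between the strains. Hp, haptoglobin, which binds free hemoglobin, read 11.57, 11.99, 11.74 and 11.84 in DBA/2 arrays, against 10.56, 10.76, 10.46 and 10.61 in AKR arrays and differed by 1.19 ± 0.091 and 1.12 ± 0.075 with its 2 probes. Ttc39b, which in mice has been tied to the turnover of the nuclear receptor LXR, differed by 1.54 ± 0.062 and 1.09 ± 0.076. The remaining leaders of the rule, Twistnb (a subunit of RNA polymerase I), C130026I21Rik and Pdxdc1, differed by 2.01 and 1.95, by 1.70 and 2.20, and by 1.33 and 1.55.

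Downward, Napsa and Gpnmb led the genes whose probes agreed. Gpnmb is a glycoprotein of late endosomes and lysosomes that macrophages make when lysosomes are under load, and the DBA/2J substrain is known for a premature stop codon in it, although the labels give no substrain here. Its brightest probe read 12.20, 12.21, 12.22 and 12.28 in DBA/2 arrays, against 13.99, 13.99, 13.99 and 13.91 in AKR arrays, 3.34-fold lower in DBA/2 cells. The other 3 probes were lower still, at -3.73, -3.72 and -3.0, and the second probe read 10.13, 10.04, 9.95 and 10.10 in DBA/2 arrays, against 13.88, 13.82, 13.83 and 13.61 in AKR arrays. All 4 probes agreed in direction but not in size, and no array of one strain overlapped the other with any of them. Napsa, napsin A, an aspartic protease of lysosomes, read 8.19, 8.26, 8.20 and 8.16 in DBA/2 arrays, against 10.03, 10.07, 10.15 and 10.18 in AKR arrays. Its probes differed by -1.91 ± 0.066 and -1.78 ± 0.083.

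Snx5, a sorting nexin that carries cargo from endosomes back to the Golgi, read 6.24, 6.22, 6.06 and 6.11 in DBA/2 arrays, against 8.53, 8.62, 8.20 and 8.38 in AKR arrays and differed by -2.27 ± 0.088 and -1.55 ± 0.1. Cd28, best known as the costimulatory receptor of T cells, read 8.67, 8.35, 8.64 and 8.63 in DBA/2 arrays, against 9.74, 9.77, 9.71 and 9.56 in AKR arrays, with differences of -1.12 ± 0.1 and -1.33 ± 0.11. No T or NK cell marker had a group mean above 8, and the mean over the 14 such markers on the array was 5.71 to 5.74 in DBA/2 arrays and 5.63 to 5.68 in AKR arrays, without overlap. Their part in the result was not tested. H2-DMb1, a chain of the DM molecule that loads peptides on class II, differed by -1.66 ± 0.088 and -1.86 ± 0.075. Pltp, the phospholipid transfer protein and a target of LXR, read 10.60, 10.62, 10.69 and 10.86 in DBA/2 arrays, against 11.60, 11.49, 11.69 and 11.61 in AKR arrays and differed by -0.90 ± 0.078 and -0.95 ± 0.094. Abhd1, Erdr1, Nudt19 and the chemokine gene Ccl12 completed the 10 lower genes, and their probes lay between -1.61 (Erdr1) and -0.96 (Nudt19).

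**Figure D2:**
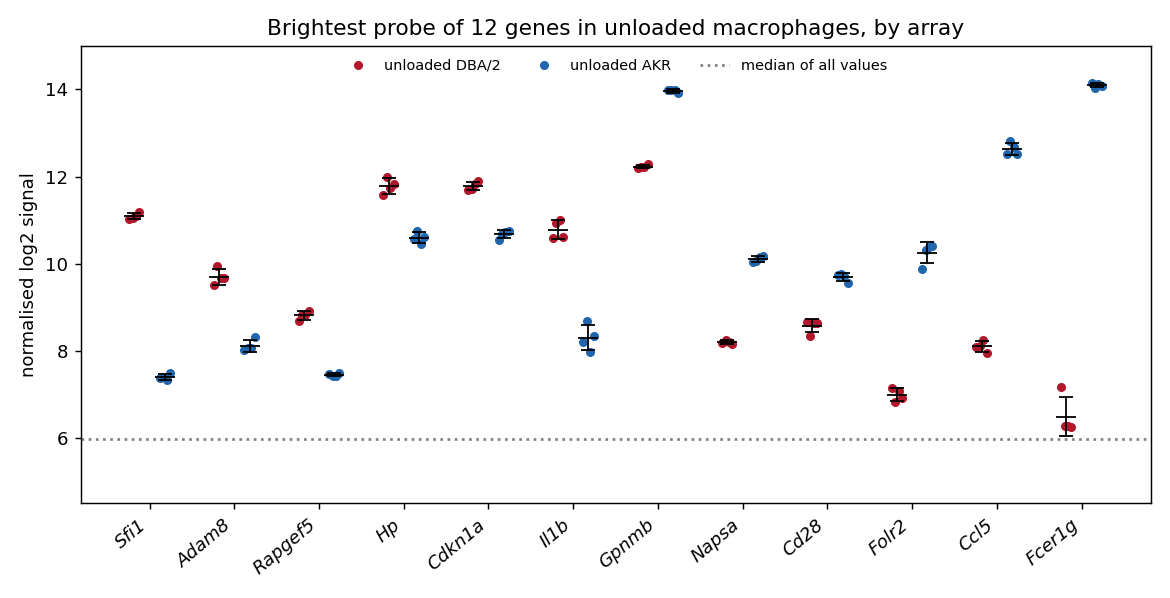
Normalised log2 signal of the brightest probe of 12 genes in the 4 unloaded DBA/2 arrays (left of each pair) and the 4 unloaded AKR arrays (right of each pair); points are arrays, bars the mean and SD, and the dotted line the median of all values. The groups do not overlap in any of the 12 genes, and 1 DBA/2 array stands above the other 3 for Fcer1g, at 7.17.

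Several of the largest differences rested on single probes. Fcer1g is the signalling chain shared by the activating Fc receptors, and it read 7.17, 6.27, 6.27 and 6.26 in DBA/2 arrays, against 14.14, 14.04, 14.12 and 14.07 in AKR arrays. The DBA/2 values lay near the median of all values and the AKR values near the top of the range, a difference of -7.60 ± 0.13, and 1 DBA/2 array stood above the other 3. Folr2, a folate receptor of macrophages, read 7.15, 6.83, 7.07 and 6.92 in DBA/2 arrays, against 9.89, 10.32, 10.39 and 10.41 in AKR arrays, 9.57-fold lower. Cd276 (B7-H3), an immune checkpoint ligand, read 5.83, 5.57, 5.83 and 5.77 in DBA/2 arrays, against 8.56, 8.52, 8.60 and 8.76 in AKR arrays, below the median of all values in DBA/2 cells. Fggy, a carbohydrate kinase, Necap2, an adaptor protein of clathrin coats, and Serpinb8, a serine protease inhibitor, were lower at -2.75, -2.66 and -2.85.

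In the other direction, H2-D1 was the largest single-probe difference at 7.72 ± 0.067, under the same limit as the other class I genes. Prcp, a lysosomal carboxypeptidase, read 11.54, 11.42, 11.39 and 11.44 in DBA/2 arrays, against 8.01, 8.13, 8.24 and 8.10 in AKR arrays, higher by 3.33 ± 0.065 in DBA/2 cells. Stab2, a scavenger receptor for hyaluronan and dying cells, read 9.45, 9.48, 9.53 and 9.52 in DBA/2 arrays, against 6.22, 5.88, 6.06 and 6.0 in AKR arrays. Pilrb1, an activating receptor of myeloid cells, read 9.14, 9.09, 9.23 and 8.95 in DBA/2 arrays, against 5.82, 5.67, 5.67 and 6.05 in AKR arrays, with the AKR mean below the median of all values. Cytip, which regulates leukocyte adhesion through cytohesin, read 11.20, 10.97, 11.22 and 11.18 in DBA/2 arrays, against 8.78, 8.74, 8.57 and 8.61 in AKR arrays, 5.53-fold higher. Vill, a villin-like actin regulator, and Gpr137b-ps, annotated as a pseudogene, were higher by 3.67 and 4.21. A single probe cannot show whether such a step is one of RNA amount, and no probe sequence was at hand to set against strain variants.

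Probes that opposed each other marked genes whose strain difference is not settled. For H2-Ab1, the beta chain of a class II molecule, one probe read 8.91, 8.61, 8.81 and 8.99 in DBA/2 arrays, against 7.37, 7.53, 7.48 and 7.30 in AKR arrays and the other 5.77, 5.88, 6.02 and 5.85 in DBA/2 arrays, against 9.03, 9.29, 8.88 and 8.97 in AKR arrays. The differences of 1.41 ± 0.12 and -3.16 ± 0.1 were called in opposite directions, the second with a DBA/2 mean below the median of all values, so that its size is uncertain. H2-K1, a classical class I gene, differed by -3.45 ± 0.091 with its brighter probe and by 0.11 ± 0.1 (adjusted p = 0.438) with the other. Actb, cytoplasmic beta-actin, is often taken as constant, and its probes disagreed too. Its 2 brightest probes differed by -0.04 and 0.04 (neither called), the third by -0.26 (adjusted p = 0.00968), and the dimmest, which read 9.77, 9.58, 10.26 and 10.37 in DBA/2 arrays, against 8.10, 7.71, 9.52 and 9.51 in AKR arrays, by 1.29 ± 0.28. That last probe varied far more among arrays of one strain than the others did, with an SD of 0.95 among the AKR arrays, and arrays 1 and 2 lay below arrays 3 and 4 in both strains, although the strains did not overlap.

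The other genes with the widest gaps between probes called in opposite directions were Txnl4a, a spliceosome component, at -0.67 and 1.20 (its brightest probe was not called), Polr1a, the largest subunit of RNA polymerase I, at 0.38 and -1.12, Rpl7l1 at -0.30 and 1.17, Mrps10, a mitochondrial ribosomal protein, at 0.74 and -0.60, Tm7sf3 at 0.85 and -0.36, and Ugt1a7c. Ugt1a7c belongs to a cluster of glucuronosyltransferase genes that share exons, and of its 6 probes the 3 brightest were higher by 0.49 to 0.72, 1 was lower at -0.50 and 2 were not called. In 23 genes a probe called at 2-fold or more stood beside one that was not called. Iah1, an esterase, differed by 0.16 (not called) and 1.96, Osbpl3, an oxysterol-binding protein family member, by 1.82 and 0.03 (not called), and Desi2 by 1.38 and -0.17 (not called).

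Antigen presentation genes moved in both directions. Of 11 class I heavy chain genes tested, 4 were higher and 3 lower, with a median difference of 0.11 beside 0.0046 over all 9312 genes. Outside the classical genes, Mr1, which presents vitamin B metabolites, and Cd1d1, which presents lipids, were higher by 0.43 ± 0.079 and 0.37 ± 0.081, and H2-T10 was lower at -1.40 ± 0.082. Of 14 genes for peptide loading and the immunoproteasome 2 were higher and 2 lower, close to the 14.3% and 13.9% among all genes. Nlrc5, the transactivator of class I genes, read 7.96, 8.05, 8.01 and 8.11 in DBA/2 arrays, against 7.28, 7.31, 7.12 and 7.26 in AKR arrays. Tap1, a subunit of the peptide transporter, was also higher, by 0.52 ± 0.071, Pdia3 was lower at -0.47 ± 0.071, and B2m, the shared light chain, did not pass the test at -0.08 ± 0.068.

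Class II genes were split within a single pathway. H2-DMa, the partner chain of H2-DMb1 in the DM molecule, read 9.25, 9.17, 9.24 and 9.38 in DBA/2 arrays, against 7.72, 7.40, 7.71 and 7.78 in AKR arrays, 3.05-fold higher in DBA/2 cells, while H2-DMb1 was 3.16-fold lower there. The groups did not overlap for either chain. Cd74, the invariant chain that guards the groove of class II, read 10.96, 10.67, 10.84 and 10.96 in DBA/2 arrays, against 11.60, 11.81, 11.59 and 11.60 in AKR arrays, lower at -0.79 ± 0.079. Ciita, the transactivator of the pathway, differed by -0.18 ± 0.088 (adjusted p = 0.12), and Ctss and Ifi30 did not pass the test at -0.26 and -0.01. In all, 3 of 10 class II genes were higher and 3 lower by the brightest probe. The higher ones include H2-Ab1, whose other probe was called in the opposite direction. They also include H2-Eb1 at 0.35, whose call was lost with only the 8 unloaded arrays in the limma fit (adjusted p = 0.0178).

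Inflammatory genes were among those most often higher in DBA/2 cells. Of 30 cytokine and NF-kB feedback genes, 18 were higher and 2 lower, with a median difference of 0.35, beside 14.3% and 13.9% of all genes. Il1b, the fever-inducing cytokine interleukin 1 beta, read 10.58, 10.94, 11.01 and 10.61 in DBA/2 arrays, against 8.21, 8.68, 7.98 and 8.35 in AKR arrays. It was 5.58-fold higher (adjusted p = 2.79e-15), without overlap. Il7r, the interleukin 7 receptor, read 9.49, 9.33, 9.39 and 9.41 in DBA/2 arrays, against 7.52, 7.33, 7.02 and 7.31 in AKR arrays, and its second probe was also higher, by 0.93 ± 0.1. Casp4, the caspase that senses cytosolic lipopolysaccharide in mice (caspase 11), read 8.48, 8.73, 8.40 and 8.37 in DBA/2 arrays, against 7.35, 7.38, 7.35 and 7.22 in AKR arrays, with a second probe at 0.49 ± 0.091. The strains did not overlap for either gene. Csf1, which encodes M-CSF itself, was higher by 0.97 ± 0.087 in cells that, if grown as for the paper's cholesterol assay, were also given M-CSF in the medium. Nlrp3, the inflammasome sensor, was higher by 1.05 ± 0.096 with its brightest probe, but its other probe was not called at 0.05 ± 0.075.

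Smaller rises were seen for Tnf at 0.57 ± 0.094, Il10 at 0.41 ± 0.11, Casp1 at 0.37 ± 0.065 and the feedback inhibitors Tnip1 and Tnfaip3 at 0.57 and 0.52. Among the transcription factor subunits, Relb was higher by 0.52 ± 0.079 and its partner Nfkb2 lower at -0.68 ± 0.1. Il18bp, a decoy that binds interleukin 18, read 5.70, 5.57, 5.71 and 5.57 in DBA/2 arrays, against 7.52, 7.05, 7.21 and 7.39 in AKR arrays, 3.15-fold lower. Of the 7 called genes of the list with several kept probes, 3 had all their probes called one way. Il18 itself differed by 0.17 ± 0.078 and did not pass the test, nor did Il1a at 0.10 ± 0.077 or Nos2 at 0.08 ± 0.067.

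Chemokines moved in both directions. Of 18 tested, 7 were higher and 8 lower in DBA/2 cells. Those higher were Cxcl genes, Ccl3 and Ccl4, and those lower were Ccl genes and Cxcl13. Among the neutrophil-attracting chemokines, Cxcl2 read 9.57, 9.79, 9.54 and 9.70 in DBA/2 arrays, against 8.33, 8.85, 8.19 and 8.37 in AKR arrays and Cxcl1 read 11.46, 11.68, 11.49 and 11.51 in DBA/2 arrays, against 10.57, 10.89, 10.49 and 10.81 in AKR arrays. They were 2.32-fold and 1.8-fold higher, and Cxcl5 rose by 0.51 ± 0.099. Cxcl16, which is also a scavenger receptor for oxidized lipoprotein, was higher by 0.69 ± 0.075, and the macrophage inflammatory proteins Ccl3 and Ccl4 by 0.88 ± 0.096 and 0.93 ± 0.1. Among the lower genes, Ccl5 had the largest difference and read 8.10, 8.12, 8.24 and 7.95 in DBA/2 arrays, against 12.51, 12.81, 12.68 and 12.52 in AKR arrays. The monocyte chemoattractants Ccl2, Ccl7, Ccl8 and Ccl12, which lie side by side on chromosome 11, were lower, at -0.62 ± 0.098, -1.76 ± 0.09, -0.83 ± 0.092 and -1.06 ± 0.081. Cxcl13, which guides B cells, was the Cxcl gene that was lower, at -1.30 ± 0.12. Of the receptors, Ltb4r1 (leukotriene B4) and C5ar1 (complement C5a) were lower at -1.03 ± 0.095 and -0.70 ± 0.092, and Ccrl2 was higher by 0.79 ± 0.1.

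The 250 bases before the start sites of these genes were searched for the letters GGGA, then any 2 bases, then TTCC or TCCC, on both strands, a common form of the site bound by NF-kB. Of 48 cytokine, feedback and chemokine genes tested, 35 had a sequence in the RefSeq promoter table of build GRCm38.p6, and 7 of them (20%) held the letters, beside 2.01% of all 27025 genes in that table. Among the genes called higher in DBA/2 cells 5 of 18 (27.8%) held them. Sequences of 4 of these are shown for where the letters lie, in capitals, on the strand of the gene and 5′ to 3′. The sequences are those of the reference strain C57BL/6J, neither DBA/2 nor AKR, and a match is not evidence of binding. Cxcl2 (chr5:90903743-90903842, + strand) and Cxcl1 (chr5:90891115-90891214, + strand) hold 2 overlapping matches, one on each strand, and Casp4 (chr9:5308697-5308796, + strand) and Csf1 (chr3:107760584-107760683, - strand) hold 1 match each.
Cxcl2: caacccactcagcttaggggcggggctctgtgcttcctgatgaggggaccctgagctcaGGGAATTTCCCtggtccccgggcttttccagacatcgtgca
Cxcl1: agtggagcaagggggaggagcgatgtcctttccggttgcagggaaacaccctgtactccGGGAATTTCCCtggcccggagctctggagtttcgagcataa
Casp4: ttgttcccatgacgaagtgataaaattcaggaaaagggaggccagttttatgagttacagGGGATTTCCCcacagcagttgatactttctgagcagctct
Csf1: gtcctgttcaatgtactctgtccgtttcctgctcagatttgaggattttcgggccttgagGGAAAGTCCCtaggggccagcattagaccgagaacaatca

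Interferon-responsive genes leaned upward without moving as a block. Of 28 such genes, 10 were higher and 5 lower, with a median of 0.10. Rsad2 (viperin), an antiviral enzyme, read 8.98, 8.74, 8.96 and 8.99 in DBA/2 arrays, against 8.08, 8.01, 7.97 and 7.82 in AKR arrays and rose by 0.95 ± 0.071, and Mx2 and Oas2 rose by 0.54 ± 0.068 and 0.52 ± 0.072. Oasl1, a translational inhibitor of Irf7, Ifi35 and Bst2 (tetherin) were lower at -0.79 ± 0.073, -0.64 ± 0.094 and -0.59 ± 0.08. The interferon-induced GTPases, which attack the vacuoles of intracellular microbes, were higher in 5 of the 7 tested and lower in none. Ifi47 led them, reading 8.70, 8.53, 8.88 and 8.73 in DBA/2 arrays, against 6.90, 6.88, 6.80 and 6.46 in AKR arrays, 3.85-fold higher, and Gbp3, Igtp, Gbp7 and Irgm2 followed at 0.37, 0.36, 0.34 and 0.31. Irf7 itself differed by -0.22 ± 0.081 and did not pass the test.

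Genes of DNA replication and mitosis were the list most often lower. Of 27 tested, 19 were lower and 2 higher in DBA/2 cells, with a median of -0.42, and the lower ones ran from the licensing of origins to the segregation of chromosomes. Uhrf1, which helps to copy DNA methylation when DNA is replicated, read 8.15, 7.89, 8.25 and 8.0 in DBA/2 arrays, against 9.50, 9.16, 9.20 and 9.37 in AKR arrays. It was 2.35-fold lower (adjusted p = 1.18e-10) without overlap. Of the MCM helicase that unwinds DNA, Mcm6 read 7.02, 6.85, 7.15 and 7.14 in DBA/2 arrays, against 7.94, 7.55, 7.99 and 7.78 in AKR arrays and Mcm5 read 8.84, 8.70, 8.93 and 8.65 in DBA/2 arrays, against 9.60, 9.22, 9.59 and 9.57 in AKR arrays, and Mcm2, Mcm7 and Mcm4 were lower at -0.53, -0.42 and -0.35. The enzymes of deoxynucleotide supply Tk1, Tyms and Rrm1 were lower, at -0.79 ± 0.1, -0.73 ± 0.086 and -0.58 ± 0.076, and the sliding clamp Pcna at -0.67 ± 0.15. Cdk1 and Aurkb, kinases of mitosis, were lower, at -0.35 ± 0.092 and -0.41 ± 0.077. E2f2, a transcription factor of this program, was lower at -1.67 ± 0.068 with its brightest probe, but its other probe was not called at -0.14 ± 0.1. The exceptions were Cenpa and Kif23, a centromere histone and a motor of cell division, which were higher by 1.32 ± 0.095 and 1.10 ± 0.096, each with 1 probe. Of the 5 called genes with several kept probes, 3 had all probes called one way. Birc5 and Plk1, other markers of mitosis, did not pass the test at -0.25 ± 0.096 and -0.06 ± 0.087.

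The same upstream windows were searched for TTTCCCGC, TTTCGCGC, TTTGCCGC and TTTGGCGC on both strands, exact forms of the site bound by E2F factors. Of 24 replication and mitosis genes with a sequence, 6 (25%) held one, beside 2.16% of all genes, and all 6 were among the genes called lower. Those 6 are 35.3% of the 17 called lower that had a sequence. Sequences of 4 of them are shown in the same way. Mcm6 (chr1:128359715-128359814, - strand) holds 2 separate matches, Mcm5 (chr8:75109298-75109397, + strand) holds 2 that overlap, and Uhrf1 (chr17:56304066-56304165, + strand) and Cdc6 (chr11:98907951-98908050, + strand) 1 each.
Mcm6: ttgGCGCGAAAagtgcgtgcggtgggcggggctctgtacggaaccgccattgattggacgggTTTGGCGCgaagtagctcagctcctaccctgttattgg
Mcm5: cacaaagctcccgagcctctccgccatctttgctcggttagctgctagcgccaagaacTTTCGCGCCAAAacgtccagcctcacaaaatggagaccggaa
Uhrf1: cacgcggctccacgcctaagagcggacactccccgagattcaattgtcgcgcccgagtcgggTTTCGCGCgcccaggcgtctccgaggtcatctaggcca
Cdc6: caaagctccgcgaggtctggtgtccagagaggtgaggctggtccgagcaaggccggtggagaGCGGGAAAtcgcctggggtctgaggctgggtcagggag

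The strain difference of the replication genes changed with loading. In the 8 loaded arrays, 12 of the 27 were higher and 2 lower in DBA/2 cells, with a median of 0.24. Among all probes 28.8% were called there, both directions together. An interaction passed the test in 18 of the 27 genes, where 14.8% of all probes did. Of the 19 genes that were lower in unloaded DBA/2 cells, 15 had a called interaction. A difference above 0 once loaded was seen in 12 of the 19, and 8 of these passed the test. The 19 were picked by their unloaded difference, which enters the interaction, so the pick itself favours such counts. No like share was taken over other genes. Mcm5 differed by -0.71 in unloaded and 0.56 in loaded cells (adjusted p of the interaction = 3.24e-08), and Tk1 by -0.79 and 0.45. Cdt1 and E2f2 were the 2 genes lower in both.

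**Figure D3:**
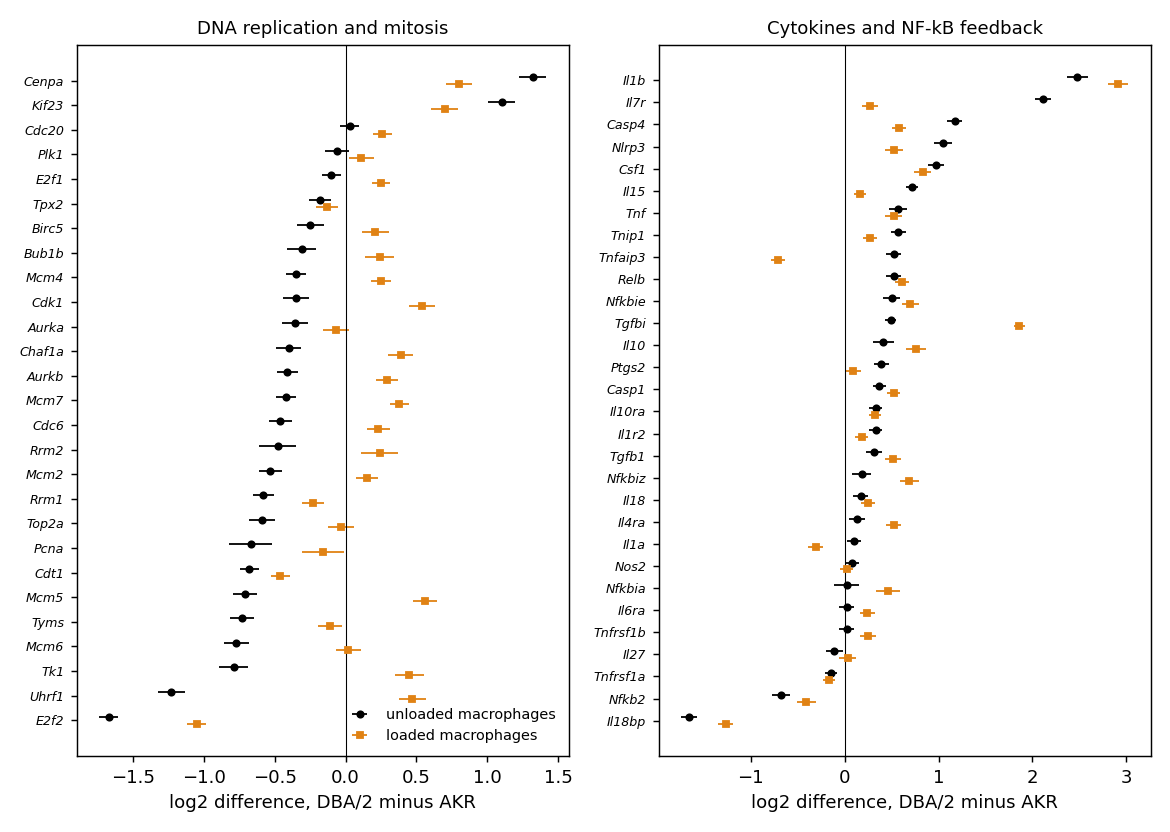
Log2 difference, DBA/2 minus AKR, in unloaded (black circles) and loaded (orange squares) macrophages for 27 replication and mitosis genes (left) and 30 cytokine and NF-kB feedback genes (right), with standard errors of the fit. Most replication genes lie left of 0 unloaded and move to or past 0 when loaded, while Il1b, Csf1, Tnf and Relb stay right of 0 in both.

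Subunits of the constitutive proteasome, which degrades ubiquitin-tagged proteins, were lower, most of them in small steps. Of 29 subunits, 17 were lower and none higher, and the median was -0.27. Psmb6, a catalytic subunit read by 1 probe, stood apart at -3.65 ± 0.064, and the next, Psmb5, another catalytic subunit, read 8.56, 8.90, 8.94 and 8.89 in DBA/2 arrays, against 9.35, 9.50, 9.62 and 9.54 in AKR arrays, a difference of -0.68 ± 0.098. The remaining called subunits of core and cap lay between -0.48 (Psma1) and -0.22 (Psmc4). Of the 6 called subunits with several kept probes, 4 had all probes called one way. Without any 1 of the 8 arrays the count of lower subunits was 12 to 15. In loaded cells 6 were lower and 1 higher, with a median of -0.11, close to the 28.8% of all probes called there in either direction.

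On the list of sterol export and LXR target genes, every called member was lower. None of 16 sterol export and LXR target genes was higher in DBA/2 cells and 9 were lower, with a median of -0.24. The factor itself, Nr1h3 (LXR alpha), read 7.78, 7.72, 7.87 and 7.82 in DBA/2 arrays, against 8.30, 8.27, 8.54 and 8.50 in AKR arrays, a difference of -0.61 ± 0.071. The apolipoproteins Apoc4, Apoc1 and Apoc2 of the cluster next to Apoe were lower, at -0.77 ± 0.073, -0.70 ± 0.089 and -0.32 ± 0.074, and Scd1, a fatty acid desaturase, at -0.69 ± 0.081. Of the efflux transporters, Abcg1 was lower at -0.20 ± 0.058 and Abca1 did not pass the test at -0.16 ± 0.14. The paper describes the array signal of Abca1 as very low, possibly through poor probe design, and measured this gene by quantitative PCR instead. The array value therefore says little about Abca1. Lpl, Npc1 and Npc2, which release and move lipid, did not pass at -0.07, 0.10 and -0.18. All 3 called genes with several kept probes had them called one way, and without any 1 array 6 to 9 were lower. In loaded cells 7 of the 16 were lower and 1 higher, where 28.8% of all probes were called in either direction.

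Synthesis and storage genes moved singly. Of 19 cholesterol synthesis and SREBP2 target genes, 3 were higher and 5 lower. Stard4, a carrier of sterol between membranes, was 2.04-fold higher, reading 8.19, 7.78, 8.19 and 8.21 in DBA/2 arrays, against 7.06, 6.82, 7.19 and 7.18 in AKR arrays, and Fdps, an enzyme of the mevalonate pathway, was lower at -0.53 ± 0.073. Hilpda, a lipid droplet protein that inhibits the lipase Pnpla2, read 9.50, 9.60, 9.65 and 9.57 in DBA/2 arrays, against 8.55, 8.43, 8.28 and 8.65 in AKR arrays, higher by 1.10 ± 0.075. Pnpla2 was higher too, by 0.54 ± 0.076, as was Lipa, the lysosomal lipase for cholesterol esters, by 0.48 ± 0.094. Plin2, the main coat protein of droplets, differed by 0.0 ± 0.069 and did not pass the test. Of the scavenger receptors, Vldlr, a receptor for triglyceride-rich lipoproteins, was higher by 1.19 ± 0.08, Colec12, Mrc1 and Lrp1 were lower at -0.73 ± 0.1, -0.50 ± 0.068 and -0.50 ± 0.082, and Cd36, Marco and Scarb1 did not pass at -0.26, -0.03 and -0.20.

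Autophagy genes were higher more often than genes at large, in 11 of 32 against 1 lower, with a median of 0.16. Neither of the 2 called genes with several kept probes had all of them called one way. In the second experiment 0 of 34 were higher and 2 lower, beside 4.96% and 5.69% of all genes there. Without 2 AKR arrays that stood apart there, 4 were lower. The genes higher in the first experiment included Ulk1, the kinase that starts autophagy, which read 8.66, 8.57, 8.77 and 8.69 in DBA/2 arrays, against 7.80, 7.78, 8.02 and 7.82 in AKR arrays. Atg7, the enzyme that activates its conjugation systems, read 7.89, 7.94, 8.02 and 8.0 in DBA/2 arrays, against 7.07, 7.15, 7.16 and 7.31 in AKR arrays. Both were higher by about the same amount, 0.82 ± 0.077 and 0.79 ± 0.071. Atg13 and Ambra1, partners of the starting complexes, Pik3c3, the lipid kinase, and Sqstm1, the cargo receptor p62, rose by 0.59, 0.58, 0.46 and 0.39. The regulators Tfeb, Tfe3 and Mitf did not pass the test at 0.12, 0.23 and 0.0.

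Lysosomal hydrolases were lower in 10 and higher in 5 of 43, beside 13.9% lower and 14.3% higher among all genes, while their median was above 0 at 0.06. Besides Napsa and Prcp, Ctsh, cathepsin H, read 10.98, 10.83, 11.01 and 10.95 in DBA/2 arrays, against 8.88, 8.92, 9.04 and 8.85 in AKR arrays, 4.06-fold higher, and Ctsk, cathepsin K, read 8.67, 8.58, 8.74 and 8.88 in DBA/2 arrays, against 9.54, 9.48, 9.62 and 9.43 in AKR arrays, lower at -0.80 ± 0.082. Ctsk is also a marker of osteoclasts, and the mean over 10 osteoclast markers on the array was 7.02 to 7.09 in DBA/2 arrays and 7.11 to 7.18 in AKR arrays. Mmp9, another of them, was lower at -1.08 ± 0.11 and Nfatc1 was higher by 0.44 ± 0.071 with its brightest probe, while 3 of its 6 probes were not called. The 2 groups of arrays did not overlap in this mean, and its part in the result was not tested. Among 30 genes of the lysosomal membrane and its proton pump, 3 were higher and 8 lower. Atp6v1d, a pump subunit, stood out at 1.96 ± 0.098, reading 9.75, 9.78, 9.74 and 9.76 in DBA/2 arrays, against 7.94, 8.0, 7.82 and 7.42 in AKR arrays, while its partner subunits Atp6v1b2 and Atp6v0d1 were lower at -0.29 and -0.34. Atp6v1c1 was lower at -0.35 with its brightest probe, and its other probe was not called. Lamp1, the main membrane glycoprotein, differed by 0.05 ± 0.065 and did not pass.

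**Figure D4:**
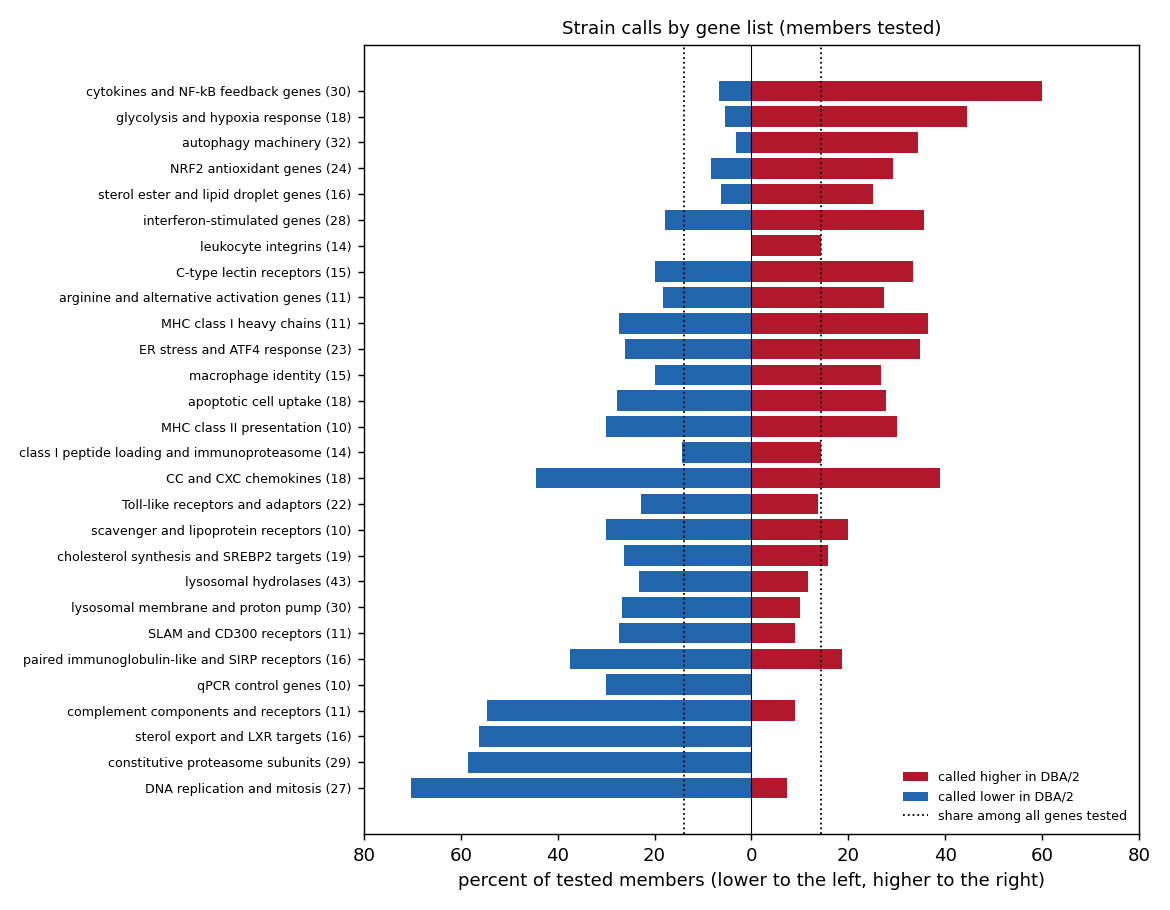
Share of the tested members of each gene list with 10 or more members that was called higher (red, right) or lower (blue, left) in unloaded DBA/2 macrophages relative to AKR, with the share among all 9312 genes as dotted lines (14.3% and 13.9%). Cytokine genes reach farthest to the right, and replication, proteasome, sterol export and complement genes farthest to the left.

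Complement genes were lower in 6 of 11 and higher in 1, with a median of -0.60, beside 13.9% lower and 14.3% higher among all genes. The 3 chains of C1q, which binds antibody complexes and dying cells, fell together, C1qa at -0.74 ± 0.075, C1qb at -1.31 ± 0.082 and C1qc at -0.60 ± 0.077. C1qb read 9.85 to 10.18 in DBA/2 arrays, against 11.22 to 11.40 in AKR arrays, without overlap. In loaded cells C1qa and C1qc were higher in DBA/2, by 0.38 and 0.27, and C1qb stayed lower, at -0.34. C2, a later protease of the cascade, read 5.91, 5.95, 5.80 and 6.11 in DBA/2 arrays, against 7.43, 7.34, 7.43 and 7.54 in AKR arrays, 2.81-fold lower. Cfb, the relative of C2 in the alternative pathway, was lower at -0.75 ± 0.085. Cd55, which breaks complement convertases on the cell's own surface, was the gene that was higher, at 1.02 ± 0.089. In loaded cells 4 genes of the list were higher in DBA/2 and 2 lower, with a median of 0.198, where 28.8% of all probes were called in either direction.

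The Fc receptors that signal through Fcer1g differed far less than the single probe of the chain itself. That probe cannot show whether its step is one of RNA amount. Fcgr1 was lower at -0.27 ± 0.077, a call that was lost with only the 8 unloaded arrays in the fit (adjusted p = 0.0168) and without single arrays (up to 0.0423). Fcgr3 was higher by 0.44 ± 0.081, Fcgr4 did not pass the test at -0.20 ± 0.06, and the inhibitory Fcgr2b, which does not use the chain, differed by -0.11 ± 0.081 and did not pass. Fcgrt, the neonatal Fc receptor that recycles antibody, was higher by 0.64 ± 0.11. Of 15 C-type lectin receptors, 5 were higher and 3 lower. Clec7a (dectin 1), the receptor for fungal glucans, rose by 0.64 ± 0.11 and Clec4e (mincle) by 0.65 ± 0.097, and Clec5a was lower at -0.77 ± 0.077. In the paired receptor families, Treml1 was higher by 1.24 ± 0.077, and Sirpb1a, Siglec1 (sialoadhesin) and Sirpb1b were lower at -2.06 ± 0.12, -0.88 ± 0.099 and -0.66 ± 0.088, where the Sirpb1 genes are near copies of each other. Trem2 and its adaptor Tyrobp did not pass at 0.12 ± 0.081 and -0.16 ± 0.065.

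Of 22 Toll-like receptor and adaptor genes, 3 were higher and 5 lower, beside 14.3% and 13.9% of all genes. Tlr2, for bacterial lipoproteins, and its helper Cd14 were higher by 0.65 ± 0.065 and 0.36 ± 0.072, while Tlr1, which pairs with Tlr2, read 5.71, 5.74, 5.64 and 5.90 in DBA/2 arrays, against 7.40, 7.60, 7.49 and 7.58 in AKR arrays, 3.42-fold lower. Unc93b1, which carries the nucleic acid receptors to endosomes, was lower at -0.83 ± 0.11, as was Tlr7 at -0.39 ± 0.076. Tlr4, the lipopolysaccharide receptor, and Myd88, the shared adaptor, did not pass the test at -0.20 ± 0.079 and -0.01 ± 0.077. Of 6 members of the MS4A family and its Tmem176 relatives, 4 were lower and none higher. Tmem176b and Tmem176a, which lie side by side, were lower, at -0.73 ± 0.11 and -0.62 ± 0.11, and both were higher in loaded DBA/2 cells, by 0.73 and 0.49. The DBA/2 means of Tlr1, C2, Sirpb1a, Il18bp and the second probes of Snx5 and Polr1a lay below the median of all values, as did the AKR means of Csf1, Cxcl5, Cxcl14, Vill, Dcn and the second probes of H2-Q6, C130026I21Rik, Ttc39b and Iah1, so that the size of these differences is uncertain.

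In 18 genes of glycolysis and the hypoxia response 8 were higher and 1 lower in unloaded cells, and 3 were higher and 2 lower in loaded cells. Among all genes 14.3% were higher and 13.9% lower in unloaded cells. In loaded cells 28.8% of all probes were called, both directions together, so the loaded counts lie near that share. Pdk1, which keeps pyruvate out of mitochondria, read 9.17, 9.19, 9.24 and 9.37 in DBA/2 arrays, against 7.86, 8.21, 7.92 and 7.97 in AKR arrays, 2.38-fold higher, and Vegfa and Hk2 were higher by 0.97 ± 0.078 and 0.64 ± 0.083, while Ldha and Pkm did not pass at -0.11 and -0.04. Among NRF2 antioxidant genes 7 of 24 were higher and 2 lower, with Prdx1 and Gstp1 at 0.51 ± 0.062 and 0.42 ± 0.083, and Gclm, a subunit of the enzyme that limits glutathione synthesis, lower at -0.73 ± 0.1. In the stress response of the endoplasmic reticulum 8 of 23 genes were higher and 6 lower. Atf3, Ddit4, Ppp1r15a and Ddit3 (CHOP) were higher by 1.04 ± 0.082, 0.88 ± 0.087, 0.84 ± 0.092 and 0.48 ± 0.074, and the folding factors Pdia6, Hspa5 and Hsp90b1 were lower at -0.69 ± 0.095, -0.32 ± 0.097 and -0.31 ± 0.094. Asns, a target of Atf4, was lower at -0.47 ± 0.075 with its brightest probe and not called with the other, and Atf4 and Trib3 did not pass the test at 0.17 and 0.16. Ass1, which makes the precursor of arginine, was higher by 1.10 ± 0.073, reading 9.78, 9.97, 9.99 and 9.81 in DBA/2 arrays, against 8.82, 8.75, 8.75 and 8.83 in AKR arrays, and Arg1 did not pass the test at 0.45 ± 0.17 (adjusted p = 0.0397), reading 7.96, 8.03, 7.89 and 8.07 in DBA/2 arrays, against 7.47, 8.23, 6.95 and 7.47 in AKR arrays.

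Genes for the uptake of dying cells gave 5 higher and 5 lower of 18. Mertk, the receptor that binds them through Gas6 and Pros1, read 8.89, 8.72, 8.74 and 8.68 in DBA/2 arrays, against 9.83, 9.64, 9.81 and 9.54 in AKR arrays, lower at -0.95 ± 0.078. Its relative Axl and the bridge protein Mfge8 were higher by 0.66 ± 0.11 and 0.77 ± 0.075, and Pros1 was lower at -0.61 ± 0.089. Of 14 leukocyte integrins 2 were higher, the 14.3% seen among all genes, and none lower, Itgb7 by 0.82 ± 0.075 and Itga6 by 0.53 ± 0.073. In the phagocyte NADPH oxidase 1 of 6 subunits passed, Ncf4, lower at -0.40 ± 0.069. Among 10 genes often used as controls in quantitative PCR, none was higher and 3 were lower, of which Tfrc, the transferrin receptor, was lower, at -0.85 ± 0.12 and read 12.17, 11.77, 12.03 and 11.94 in DBA/2 arrays, against 12.98, 12.85, 12.73 and 12.75 in AKR arrays. Hprt, Tbp, Ywhaz and Rplp0 did not pass the test at -0.04, 0.03, 0.07 and 0.11. Dcn, decorin, a matrix protein of stromal cells, was higher by 1.72 ± 0.088 and 0.57 ± 0.083 with its 2 probes, and the mean over 14 stromal markers was 5.85 to 5.92 in DBA/2 arrays and 5.73 to 5.84 in AKR arrays. What part other cells had in it was not tested.

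By chromosome, genes called at any size made up 22.5% (chromosome X) to 36.1% (chromosome 13) of those tested. At 2-fold or more the shares were highest on chromosome 1, with 23 of 483 genes (4.76%), and chromosome 17, with 21 of 467 (4.5%), and lowest on chromosome X, with 2 of 284 (0.704%). Of the 210 genes called at 2-fold or more, 78 had another such gene within 1 Mb, in 31 runs, of which 14 held differences of 1 direction only. The same count was not made for other sets of tested genes. Whether genes called at this size lie closer together than others was therefore not tested. The longest run lay on chromosome 17 between positions 33996012 and 36121444 of GRCm38.p6 and held 10 genes from H2-K1 to H2-T10, with both directions among them. The next, on chromosome 11 between 69682577 and 70651421, held 6 genes, among them Tnfsf13 and Psmb6, again in both directions.

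In the loaded arrays of the first experiment, which are other dishes, 3838 probes (28.8%) were called. Of the 300 probes at 2-fold or more in unloaded cells, 274 were called in the same direction in loaded cells, 18 were not called and 8 were called in the opposite direction. An interaction was called for 124 of the 300, beside 14.8% of all probes. Of the 124, 88 had a smaller and 36 a larger difference when loaded. The 300 were picked for a large unloaded difference, which enters the interaction. That pick favours called interactions and smaller differences when loaded. The 8 probes that changed direction, named because of that, were those of Hilpda, Cd52, Zfp661, Uhrf1, Vwf, P2ry13, Ch25h and Cxcl13. Il7r lost most of its difference, with 2.11 in unloaded and 0.27 in loaded cells (adjusted p of the interaction = 8.84e-11), and Serpinb8 differed by -2.85 and -1.37. Cxcl14 gained, with 1.16 unloaded and 2.82 loaded, as did the dimmest probe of Gpnmb with -3.0 and -4.33.

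**Figure D5:**
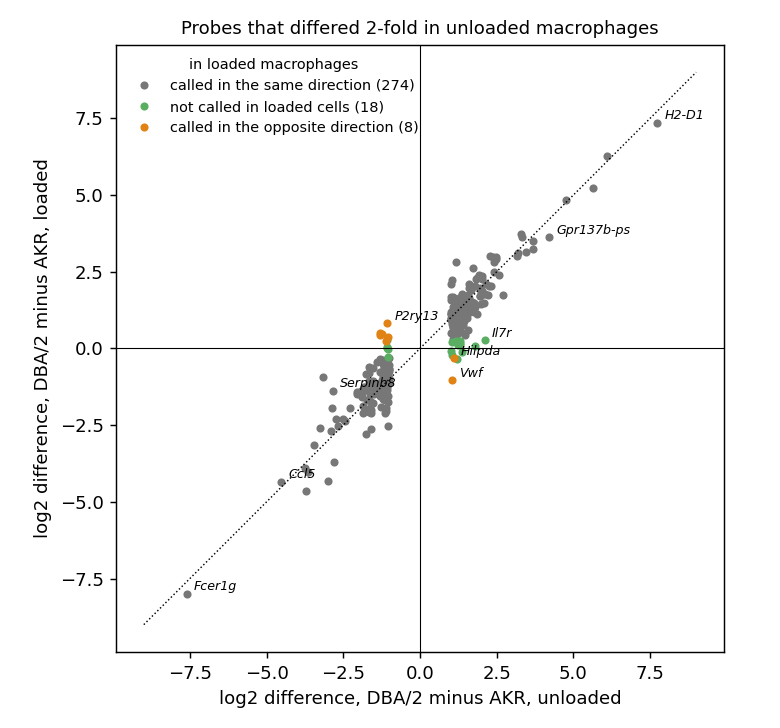
Log2 difference, DBA/2 minus AKR, in unloaded (x axis) and loaded (y axis) macrophages for the 300 probes called at 2-fold or more in unloaded cells, coloured by the test in loaded cells; the dotted line marks equal differences. Most points follow the line over the whole range, and Hilpda, Vwf and P2ry13 are among the 8 that lie across 0.

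In the second experiment, in mice labelled male and on another array version, the Y-linked Eif2s3y read 7.89 to 8.40 in unloaded DBA/2 arrays, against 3.45 to 3.97 in unloaded AKR arrays, where it lay below that table's median of 4.288 and so went against the male label. The other sex-linked genes did not separate the strains: Kdm5d read 4.75 to 5.42 in unloaded DBA/2 arrays and 4.92 to 5.37 in unloaded AKR arrays, Uty 4.67 to 5.36 and 4.69 to 5.13, and the brighter Xist probe 3.91 to 4.51 and 3.91 to 4.45. Whether the sex of the AKR cells differed from the label was not settled by these values, and its part in the strain differences below was not tested. The experiment called 464 of 9356 genes (4.96%) higher and 532 (5.69%) lower in unloaded DBA/2 cells. Of 203 genes named by the rule and called in the first experiment, 191 were tested there, 65 were called in the same direction and 8 in the opposite one. Without 2 arrays of AKR cells that stood apart in that experiment, 1 unloaded and 1 loaded, the counts were 80 and 14. The share of all genes called without these 2 arrays is not given here, so a rise in calls at large cannot be told apart. Several genes with agreeing probes were called in the same direction there, and the values below are with all arrays and then without the 2. Adam8 differed by 1.78 and 1.95, Rapgef5 by 2.10 and 2.11, Napsa by -2.75 and -3.02, Gpnmb by -2.95 and -2.90 and Cd28 by -1.39 and -1.51. Il1b differed by 1.58 and 1.32, and Folr2 by -2.55 and -2.94.

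Other genes differed between the experiments. Ccl5 differed by -0.09 and -0.34, neither called, Cdkn1a by 0.05 and -0.22, neither called, and Ccl12 by 1.58 (adjusted p = 0.0352) and 1.02 (adjusted p = 8.21e-06), in the direction opposite to that of the first experiment. Pdxdc1 was lower there, at -1.0 and -1.01, and H2-K1 higher, at 4.54 and 4.29. Of 29 cytokine and NF-kB feedback genes 3 were higher and 1 lower, beside 4.96% and 5.69% of all genes. Of 28 proteasome genes 1 was lower, 3 of 26 replication genes were lower, and 11 of 35 interferon-responsive genes were higher. Without the 2 arrays, the cytokine counts were 8 and 1, with 8 replication genes lower and 19 interferon-responsive genes higher. These counts have no share of all genes in that setting beside them, so they show no rise particular to a list. With all arrays, 2 of 19 genes of glycolysis and the hypoxia response were higher and 0 lower. Of 12 complement genes 1 was higher and 1 lower. The labelled sex and the array version differ together between the experiments and cannot be told apart.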

How the data were processed

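RNA of bone marrow macrophages was hybridised to Illumina MouseRef-8 bead arrays, and the deposited tables, 1 per experiment, hold log2 signals after quantile normalization by the authors, who used lumi 2.6.0 per the labels. The authors left out probes over known strain variants and probes without detection, but the deposited tables still hold them and give no detection values. Groups came from the strain, sex and agent labels. A limma 3.58.1 model (R 4.3.3) of strain, loading and their interaction was fitted to the 16 arrays of experiment 1 and separately to those of experiment 2, with Benjamini-Hochberg adjusted p under 0.01 as the threshold. Probes were kept where the highest of the 4 group means exceeded the median of all values, 5.978, and a gene was read from its brightest kept probe. The model was tested on simulated data.

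Genes were named by rule: of genes with several kept probes all called one way, the 10 in each direction with the largest smallest difference; of genes with 1 kept probe, the 8 largest in each direction; of genes with probes called in both directions, the 8 widest gaps; of genes with a probe at 2-fold or more beside one not called, the 6 widest gaps; in each list, up to 4 called members in each direction and all members of lists of 9 or fewer; and Apoe and sex-linked genes. One further gene of the rule is not reported here. Further members of the lists were named after their values were seen. The members and gene lists were chosen with earlier results of these data known. Promoter sequences and gene positions are of RefSeq, build GRCm38.p6. No depth applies to arrays, and the number of arrays, 4 per group, limits the precision. The alternatives were the samples in the fit, the filter, an offset of 50, the empirical Bayes options, blocks, centring, the probe read for a gene and leaving out single arrays.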

Additional observations from a re-analysis of the deposited data

Results flagged for a closer look

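In 25 of 430 gene and group pairs (5.81%), 1 of the 4 arrays stood apart from the other 3 by Dixon's criterion, which chance passes in about 1 group in 20. In DBA/2 array 1, normalised log2 signals stood apart for Fcer1g (7.17, others 6.26 to 6.27), Psmb5 (8.56, others 8.89 to 8.94) and Txnl4a (10.33, others 10.46 to 10.48). In DBA/2 array 2, normalised log2 signals stood apart for Atp6v1e1 (12.51, others 12.62 to 12.65), Cd28 (8.35, others 8.63 to 8.67), Cxcl14 (6.84, others 6.91 to 6.93), Cytip (10.97, others 11.18 to 11.22), Fcgr3 (12.64, others at 12.95 or above), Rsad2 (8.74, others 8.96 to 8.99), Sirpb1b (10.34, others 10.11 to 10.15) and Stard4 (7.78, others 8.19 to 8.21). In DBA/2 array 3, normalised log2 signals stood apart for Psme2 (8.34, others 7.93 to 7.97). In DBA/2 array 4, normalised log2 signals stood apart for Mx2 (7.10, others 7.26 to 7.28). In AKR array 1, normalised log2 signals stood apart for Fcgr4 (11.83, others at 11.75). In AKR array 2, normalised log2 signals stood apart for Actb (14.17, others at 14.23), Cd33 (8.12, others 8.49 to 8.55), Cd74 (11.81, others 11.59 to 11.60), Dgat1 (7.60, others 7.86 to 7.89), Gabarap (12.20, others 11.86 to 11.89), Oas1g (11.05, others 11.22 to 11.25) and Slc36a1 (6.70, others 6.87 to 6.90). In AKR array 4, normalised log2 signals stood apart for Adam8 (8.31, others 8.03 to 8.06), Ccl4 (11.98, others 11.47 to 11.55), Gpnmb (13.91, others at 13.99) and Treml1 (7.93, others 7.71 to 7.72).

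The strain difference was called in opposite directions in loaded and unloaded cells for 15 of the 215 named genes tested. An interaction of any kind was called for 93 of them, beside 14.8% of all probes. Most named genes were picked by their unloaded difference, which enters the interaction, so the pick itself favours such calls. Each of the 15 is given as the log2 difference DBA/2 minus AKR in loaded cells, with that in unloaded cells in parentheses. Higher in loaded DBA/2 cells were C1qa at 0.38 (-0.74), Clec4a3 at 0.51 (-0.62), Cxcl13 at 0.43 (-1.30), Fcgr1 at 0.67 (-0.27), Ms4a6c at 1.21 (-0.39), Tk1 at 0.45 (-0.79), Tmem176a at 0.49 (-0.62), Tmem176b at 0.73 (-0.73) and Uhrf1 at 0.47 (-1.23). Lower in loaded DBA/2 cells were Ccl4 at -0.65 (0.93), Clec4e at -0.58 (0.65), Hilpda at -0.32 (1.10), Ppp1r15a at -0.37 (0.84), Rsad2 at -0.34 (0.95) and Slc17a5 at -0.26 (0.37). The adjusted p of the interaction, from limma, ranged from 3.66e-10 (Ms4a6c) to 9.24e-05 (Slc17a5).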

How the results depend on the processing

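With an offset of 50 on the linear scale, 191 probes were called at 2-fold or more (114 higher and 77 lower in DBA/2), against 300 (176 and 124). Genes with probes called in both directions numbered 17 without a filter and 13 under the stricter filter, against 26, and lower replication genes numbered 12 under the stricter filter, which tests fewer probes, against 19. Without any 1 of the 8 unloaded arrays, 3253 to 3424 probes were called, and 290 to 305 at 2-fold or more, 169 to 178 higher and 116 to 128 lower. Of 3419 pairs of named gene and alternative, 3338 kept their direction and side of the threshold, 77 lost the call, 4 gained it and 0 reversed. The lost calls fell on 17 genes, among them Fcgr1, Lcn2, Ppia, Atp6v0d1, H2-Eb1 and H2-T23. Replicate numbers did not pair the samples: the same-numbered correlations between strains were 0.0461 to 0.154, and not every array correlated best with its own number. Every best partner lay within the pairs 1 and 2 or 3 and 4, however: deviations correlated at 0.0973 within these pairs and at -0.0967 across them, and the methods put 2 unloaded dishes of each strain on a chip, although the labels do not say which. With these pairs as a block, unloaded strain calls numbered 3986, and Fcgr4 gained a call (adjusted p = 0.00859). With the replicate block, unloaded strain calls numbered 3937, and again 300 at 2-fold or more. The absence of detection values limits what can be said of dim probes.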
